A study of Homo sapiens with 8 samples.

Results

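Human embryonic stem cells that had been induced toward mesoderm on a soft gel of 400 Pa were compared with cells given the same induction on a stiff gel of 60 kPa. All 4 libraries came from day 3.5 and from H9, an established human embryonic stem cell line, and each gel is represented by 2 libraries. Both groups grew in medium conditioned by feeder cells and received bFGF, Activin, VEGF and BMP4, and both carry the label of multipotent mesoderm progenitors, so only the stiffness of the gel differs between them by the labels. The other 4 libraries of the series, taken at day 0 from undifferentiated cells on the same gels, are used only as a reference level. H9 is 1 line, so nothing here bears on other lines, and no label says whether the 2 libraries of a gel were separate cultures. The genes described are the rows of the day 3.5 table that carry a single gene symbol and reach at least 1 FPKM (fragments per kilobase of transcript and of library size) on either gel. These were 15896 of 34690 rows, or 15333 distinct symbols after keeping the most abundant row of each, and 14993 of them had been tested by the authors.

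The authors' value for a gene is 1 FPKM per gel, pooled over its 2 libraries. No value per library was used here, the read depth is unknown, and no SD can be put beside a level. The change given below is the log2 ratio of the level on 400 Pa to the level on 60 kPa, each with 1 FPKM added. It is positive where the soft gel was higher, and the pseudocount of 1 understates changes of weakly expressed genes. Its standard error (SE) was derived from the deposited log2 ratio and test statistic, lies on the scale without pseudocount and is approximate. A gene is named as called where the q-value in the authors' deposited table was under 0.05. The p-values behind it come from the authors' comparison of these libraries alone, whose spread may be technical. They do not always follow the deposited test statistic, as described below. At the edge of the FPKM minimum, TNFSF15 was just inside with 1.0003 FPKM on the soft gel and 0.294 on the stiff gel, and TUBB8P2 just outside with 0.636 and 0.9998. These are levels in RNA from whole cultures, in which fewer cells of a type and less RNA per cell cannot be told apart.

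Mesoderm forms when pluripotent cells of the epiblast pass through the primitive streak under BMP, WNT, Nodal and FGF signals. The strength of the BMP signal sorts the new mesoderm along the embryo's axis, with high BMP favouring lateral, extraembryonic and cardiac fates, and the same signal can also turn pluripotent cells toward amnion and trophoblast. Where BMP and WNT are blocked by secreted inhibitors, epiblast cells instead take on an anterior neural character. Soft and stiff gels differ in how far cells can pull on their adhesions, which is why genes of the cytoskeleton, the adhesions and the YAP and TAZ coactivators were looked at as well.

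The induced cells differed between the gels mainly by genes that were higher on the soft one. In the authors' deposited table, calls went to 181 genes as higher on the soft gel, 1.21% of those tested, and to 36 genes as higher on the stiff gel, 0.240%, together 1.45%. The soft side held transcription factors of lateral and cardiac mesoderm, BMP4 and genes that respond to it, amnion and trophoblast genes, collagens and small proteoglycans, annexins and growth factors. The stiff side held transcription factors of the anterior neural plate, secreted WNT inhibitors and frizzled receptors. Among all tested genes the median change was 0.04, and 90% of the changes lay between -0.72 and 0.94. Genes called on the soft side had a median level of 16.2 FPKM there against 3.22 on the stiff gel, and 50 of the 181 were under 1 FPKM on the stiff gel. Genes called on the stiff side had a median level of 25.3 FPKM there against 3.38 on the soft gel, and 9 of the 36 were under 1 FPKM on the soft gel. The changes ran from 0.94 to 6.91 on the soft side (median 1.77) and from -5.91 to -0.80 on the stiff side (median -1.72).

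**Figure D1:**
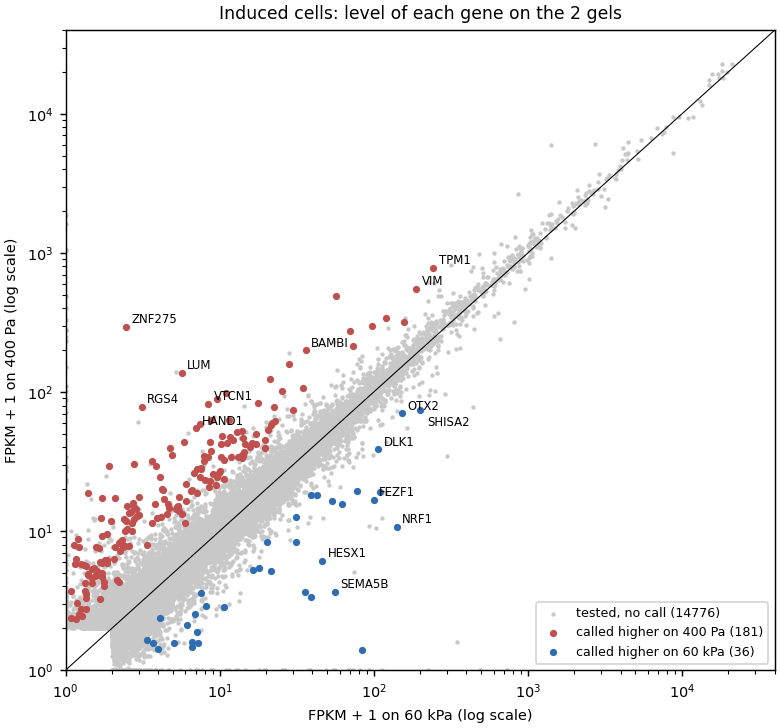
Level of each tested gene on the stiff gel (horizontal) and the soft gel (vertical), as FPKM + 1 on log scales, each point 1 gene and 1 pooled value per gel. Red points are the 181 genes called higher on 400 Pa and blue points the 36 called higher on 60 kPa by the authors' deposited table; the line marks equal levels, and 50 of the red points were under 1 FPKM on the stiff gel.

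The calls do not hold every gene with a large change. Among tested genes of at least 5 FPKM on a gel, 404 of 9956 (4.06%) were higher on the soft gel by a change of at least 1, and 194 (1.95%) were higher on the stiff gel by as much. At a change of at least 2 there were 132 on the soft side, of which 71 had no call in the authors' deposited table, and 55 on the stiff side, of which 42 had no call. Many of these uncalled rows were not messenger RNAs: 25 and 19 were small RNA genes, and a further 7 and 15 were listed at 0 on a gel. The uncalled protein-coding genes numbered 27 on the soft side and 3 on the stiff side, and the SE was above 1 for 25 and 3 of them. HAND2, a heart and limb field factor, is among them, at 16.2 FPKM on the soft gel and 0.696 on the stiff gel (change 3.34, SE 1.24, q = 0.789 in the authors' deposited table). A gene without a call is therefore not shown to be equal on both gels. In the other direction, 27 genes called on the soft side and 7 called on the stiff side had a 95% interval, taken from their SE, that includes 0, so for these the call of the authors' deposited table and the SE do not go together. Of those on the soft side, TBX4, PRRX1, COL6A2, ADAMTS18, ITGB6, AMOT, FENDRR, KCNMA1 and CDK6 are named below. Those named on the stiff side are VWF, MYB, MEG3 and GRM7.

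The label of mesoderm progenitors was set against its defining markers. T (brachyury), the primitive streak factor, stood at 12.01 FPKM on soft and 5.15 on stiff gel (change 1.08, SE 0.84). MESP1, the factor of the earliest cardiac mesoderm, stood at 13.5 and 8.03, MIXL1 at 7.60 and 6.39, EOMES at 4.40 and 3.44, MESP2 at 3.56 and 5.38, and TBX6 at 2.13 and 1.94. All of these were therefore present at low to moderate levels on both gels, and none had a call in the authors' deposited table. KDR, the VEGF receptor of mesoderm progenitors, stood at 23.0 FPKM against 14.8, and PDGFRA lies in a row merged with other genes and is not analysed here. HAND1 alone of the label's markers was called, at 53.8 FPKM on soft and 6.07 on stiff gel. Of 20 tested genes of the primitive streak and nascent mesoderm list (23 listed, 2 below the minimum), 17 lay above 0 with a median of 0.29. The list held 1 call, beside 1.21% of all tested genes on the soft side. The called gene was HAS2, which makes hyaluronan, at 52.3 FPKM against 19.7 (change 1.36, SE 0.43). MSGN1, a factor of presomitic mesoderm that was chosen after its values were seen, stood at 13.4 and 2.01 FPKM, and its q in the authors' deposited table was 0.12. NODAL, the ligand that starts streak formation, lay at 6.46 and 5.94, and CER1, its secreted inhibitor, at 20.8 and 30.2.

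Transcription factors of lateral, cardiac and extraembryonic mesoderm held the largest share of calls of any list. Of 38 listed genes 27 were tested and 10 were below the minimum. By the authors' deposited table, 16 of the 27 were called, all higher on the soft gel, where 1.21% of all tested genes were called in that direction. The median change of the list was 1.66 against 0.04 over all tested genes, and 25 of its members lay above 0. HAND1 (chr5:153851315-153857921, hg19), a basic helix-loop-helix factor of lateral and extraembryonic mesoderm, changed by 2.95 with an SE of 0.59. In the day 0 table, which was quantified separately from that of day 3.5, it had stood at 0.296 and 0.0646 FPKM, so it was nearly silent on both gels before induction. TBX3, a T-box factor of limb, heart and extraembryonic tissue, stood at 42.4 FPKM on soft against 4.90 on stiff gel, and its relative TBX4, a hindlimb factor, at 6.93 against 0.138. ISL1, which marks cardiac progenitors and amnion, stood at 47.7 against 9.44 FPKM (change 2.22, SE 0.53). PRRX1, a factor of limb mesenchyme, stood at 16.4 against 0.726 (change 3.33, SE 2.42), and SNAI2, a repressor that drives epithelial cells to become mesenchymal, at 28.2 against 2.85 (change 2.92, SE 0.63). MEIS1, a homeodomain partner of HOX proteins, was the most abundant of the called factors on the soft gel with 62.4 FPKM against 7.75. The BMP-responsive homeodomain factors MSX1 (18.6 and 3.26 FPKM) and MSX2 (49.0 and 16.2) showed smaller changes of 2.21 and 1.54. GATA6, a factor of heart and extraembryonic endoderm, stood at 6.76 and 1.58 FPKM; its gene holds a small RNA gene, whose reads cannot be told apart from its own in the deposited values. Members without a call included FOXC1, a paraxial mesoderm factor at 7.48 and 8.39 FPKM, and IRX3 at 6.95 and 6.68.

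**Figure D2:**
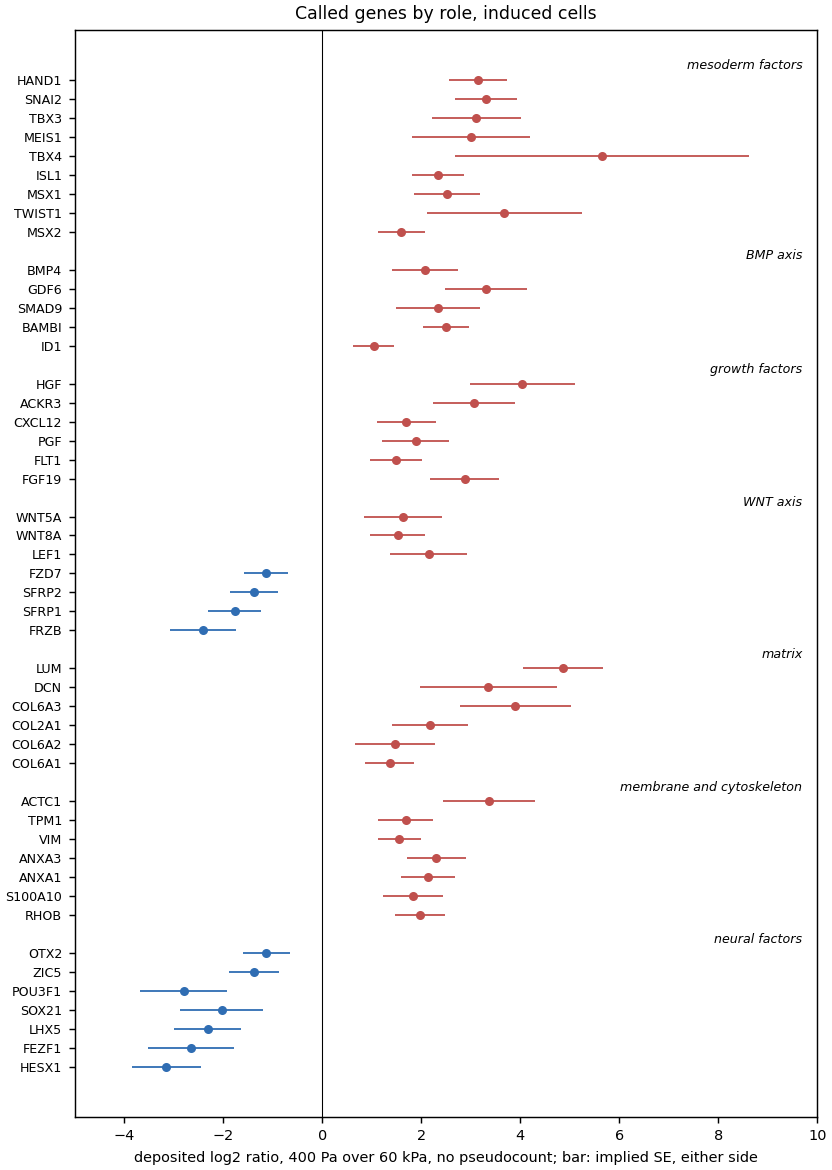
Change of called genes named in the text or on its lists, grouped by role, as the authors' deposited log2 ratio turned to 400 Pa over 60 kPa, without a pseudocount, with bars of 1 implied SE on either side; red is higher on the soft gel and blue on the stiff gel. Mesoderm, BMP, growth factor, matrix and cytoskeletal genes lie to the right of 0, neural factors to the left, and genes of the WNT axis on both sides.

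Genes that set position along the trunk were also higher on the soft gel. Of 50 listed HOX, CDX, MEIS and PBX genes only 19 could be read, since 13 were below the minimum and 17 lie in rows that merge several genes. By the authors' deposited table, 7 of the 19 were called, all on the soft side, beside 1.21% of all tested genes. The median change was 1.76, with 18 above 0. The called genes were MEIS1, MEIS2, CDX1, CDX2, CDX4 and the HOX genes HOXB1 and HOXA13. MEIS1 is on the lateral mesoderm list as well, and CDX2 on the list of BMP response genes. CDX2, a caudal factor of posterior mesoderm and trophectoderm, stood at 14.8 FPKM against 1.74 (change 2.53, SE 1.08). The anterior HOX gene HOXB1 stood at 4.83 against 0.252 FPKM, and the most posterior gene of its cluster, HOXA13, at 5.25 against 0.162. Both were low even on the soft gel, and they were the only HOX genes among these calls. Uncalled HOX genes with changes of similar size, chosen after their values were seen, were HOXB9 (7.76 and 0.395 FPKM, change 2.65), HOXB2 (6.26 and 0.593, change 2.19) and HOXB7 (5.11 and 0.357, change 2.17). HOXB7 holds a small RNA gene. The cofactors MEIS3 (16.9 and 16.6 FPKM) and PBX3 (23.3 and 25.7) were uncalled in the authors' deposited table, with changes of 0.02 and -0.14.

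The BMP axis was read from ligand to target. BMP4, the ligand that is also part of the inducing mixture, had a messenger level of 50.5 FPKM on soft against 11.99 on stiff gel (chr14:54416454-54425479, hg19; change 1.99, SE 0.67). At day 0 it had stood at 5.61 and 3.69 FPKM. GDF6, a further ligand of the family, stood at 3.88 against 0.390. These were the only calls among 9 tested ligands (16 listed, 6 below the minimum), whose median change was -0.03. Over all tested genes 1.21% were called on the soft side. BMP7 lay at 19.7 and 22.4 FPKM, BMP2 at 7.08 and 3.70 and GDF11 at 5.94 and 6.73. Of 16 receptors and SMADs, only SMAD9, a transducer of BMP signals, was called in the authors' deposited table, at 5.28 against 1.05 FPKM, and the abundant receptor BMPR1A lay at 55.6 and 43.5. None of the 11 tested secreted BMP antagonists was called. FST (follistatin) stood at 57.7 and 58.2 FPKM, and FSTL1 at 384 and 284.

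Genes known to respond to BMP were then read in the same way. By the authors' deposited table, 9 of 21 tested response genes (23 listed) were called. All were on the soft side, where 1.21% of all tested genes were called. The list had 19 members above 0 and a median of 1.09, where 54.4% of all tested genes lay above 0. HAND1, TBX3, CDX2, MSX1 and MSX2 from the lists above are 5 of these 9, so they add nothing separate. BAMBI, a pseudoreceptor that dampens BMP and Activin signals, stood at 199 FPKM against 35.2 (change 2.47, SE 0.47). HEY1, a repressor shared by BMP and Notch signalling, stood at 23.5 against 3.08 (change 2.59, SE 0.78). The ID genes, direct SMAD targets that block helix-loop-helix factors, were split: ID1 stood at 321 against 156 FPKM and was called (change 1.03, SE 0.42), ID2 at 339 against 158, ID3 at 258 against 201 and ID4 at 38.6 against 36.8, all 3 uncalled in the authors' deposited table. The change of the ID genes ran from 0.07 to 1.09.

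The promoters of HAND1 and BMP4, higher on the soft gel, and of HESX1, a neural factor higher on the stiff gel and described below, are shown because the results turn on these 3 genes. The sequences are RefSeq's, build GRCh38.p14, 250 bases before to 50 after the start of the gene, on the gene's own strand (the minus strand in all 3 cases). Capitals mark the motifs found there, searched on both strands. Those searched were GGCGCC and the palindrome GTCTAGAC for SMAD proteins, CTTTGAT for the nuclear partners of beta-catenin, AGATAA for zinc finger factors of the GATA family, TAATTA for homeodomain factors, CATATG besides CAGCTG for helix-loop-helix factors, GGAATG for TEAD factors, and the box TATAAA of core promoters. HAND1 is shown for chr5:154478178-154478477, BMP4 for chr14:53955001-53955300 and HESX1 for chr3:57227566-57227865.
HAND1: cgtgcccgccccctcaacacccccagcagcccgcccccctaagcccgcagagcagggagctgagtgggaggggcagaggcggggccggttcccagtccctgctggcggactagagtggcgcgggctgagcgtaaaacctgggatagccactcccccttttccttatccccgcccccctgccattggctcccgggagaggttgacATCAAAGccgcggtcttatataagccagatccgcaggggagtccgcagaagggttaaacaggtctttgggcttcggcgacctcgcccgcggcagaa
BMP4: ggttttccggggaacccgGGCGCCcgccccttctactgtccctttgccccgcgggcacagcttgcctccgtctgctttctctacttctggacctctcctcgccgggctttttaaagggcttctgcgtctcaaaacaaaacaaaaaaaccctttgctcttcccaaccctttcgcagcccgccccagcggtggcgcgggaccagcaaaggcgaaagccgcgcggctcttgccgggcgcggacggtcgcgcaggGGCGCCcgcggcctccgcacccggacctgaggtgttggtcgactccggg
HESX1: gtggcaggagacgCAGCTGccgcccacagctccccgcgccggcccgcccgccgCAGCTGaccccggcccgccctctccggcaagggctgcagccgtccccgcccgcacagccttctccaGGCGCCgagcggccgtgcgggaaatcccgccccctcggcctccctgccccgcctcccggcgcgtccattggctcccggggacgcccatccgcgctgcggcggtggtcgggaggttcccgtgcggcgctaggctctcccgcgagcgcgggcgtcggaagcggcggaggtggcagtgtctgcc
The HAND1 promoter holds CTTTGAT on its reverse strand, printed as ATCAAAG, which 1.37% of the 9472 promoters of tested genes in the table also hold. BMP4 holds GGCGCC, found in 31.2% of those promoters, and HESX1 holds GGCGCC together with CAGCTG, found in 16.4%. A match of letters describes the sequence and is no binding site. The deposited loci lie on hg19 and were not carried over to this build. The RefSeq starts used here may therefore differ from those of the measured transcripts. The table held a promoter for 131 of the 181 genes called on the soft side and 22 of the 36 called on the stiff side, under 80% of each, so a comparison of motif or base content between the sides is void and none is given.

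Markers of other cell types were read beside the mesoderm genes. Amnion and trophoblast genes, which BMP also induces, had 10 calls among 23 tested members (29 listed, 5 below the minimum) in the authors' deposited table. All were on the soft side, where 1.21% of all tested genes were called, and the median change of the list was 1.501. Over the 28 markers with a row the summed level was 1318 FPKM on soft and 436 on stiff gel. VTCN1, an immune checkpoint ligand of amnion and trophoblast, stood at 81.3 FPKM against 7.44 (change 3.28, SE 0.53). GABRP, a GABA receptor subunit used as an amnion marker, stood at 62.0 against 10.6 (change 2.45, SE 1.09), and KRT7, a keratin of trophoblast and other simple epithelia, at 30.7 against 6.94 (change 1.996, SE 0.92). IGFBP3, an IGF-binding protein, stood at 98.2 against 9.94. HAPLN1, a hyaluronan-linking protein and the most abundant member, stood at 825 against 319 FPKM uncalled in the authors' deposited table, and TFAP2A at 13.6 against 8.83. The trophoblast genes ELF5 and GCM1 were below the minimum. Without HAPLN1 the summed level of the amnion and trophoblast markers was 492 FPKM on soft and 117 on stiff gel. Fibroblast markers had 4 calls of 16, all on the soft side, with summed levels of 3055 and 1084 FPKM. SPARC, uncalled in the authors' deposited table, made up 2639 and 868 of these, and without it the sums were 416 and 216. Their called members LUM, DCN, COL3A1 and COL5A1 are described with the matrix, while THY1 (25.5 and 26.8 FPKM) and S100A4 (70.4 and 86.5) had no call. Whether amnion-like or fibroblast-like cells take part in the changes of the mesoderm lists was not tested.

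The endothelial, haematopoietic, endoderm, neural crest and epidermal lists held 1 or 2 calls each, where 1.21% of all tested genes were called on the soft side and 0.240% on the stiff side. Of 12 endothelial genes FLT1, a VEGF receptor, was called on the soft side (24.99 and 8.87 FPKM) and VWF on the stiff side (0.873 and 6.12, SE 1.58), while the defining genes CDH5 and CLDN5 were below the minimum. Of 7 haematopoietic genes FLI1 was called on the soft side at 2.31 against 0.367 FPKM and MYB on the stiff side at 0.644 against 2.40, while RUNX1, GATA1 and PTPRC were below the minimum. Definitive endoderm genes had 1 call of 13, GATA6, which is a mesoderm factor as well, and SOX17 and FOXA2 were below the minimum. The summed levels over each list's markers with a row were 94.0 and 60.5 FPKM for endothelial genes, 35.1 and 31.1 for haematopoietic genes and 374 and 336 for definitive endoderm genes. Neural crest genes had 1 call of 10, SNAI2, and summed levels of 67.6 and 31.2 FPKM, and SOX10 and PAX3 stood under 1.2 FPKM on both gels. TP63, an epidermal and amnion factor, was called at 3.21 against 0.488 FPKM, while KRT5 and KRT15 were below the minimum. In all, 60 lists had at least 5 tested members: 32 had calls on the soft side only, 5 on the stiff side only, 7 on both sides and 16 on neither, by the authors' deposited table.

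**Figure D3:**
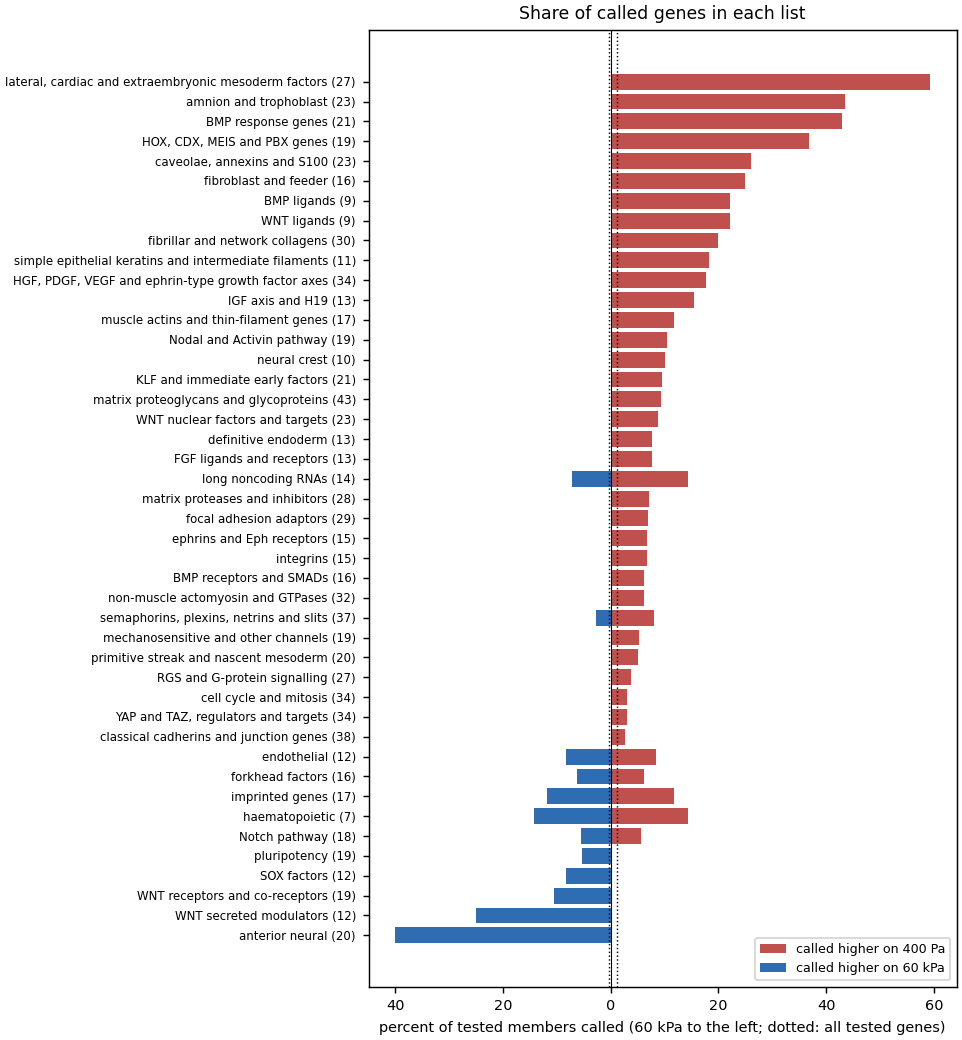
Percent of tested members of each list called higher on the soft gel (red, to the right) or the stiff one (blue, to the left) by the authors' deposited table, for the lists with at least 5 tested members and a call; the number tested is in parentheses. Dotted lines mark the shares over all tested genes, 1.21% and 0.240%. Lateral mesoderm factors have the longest red bar and anterior neural factors the longest blue bar; lists share genes.

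Genes of the WNT axis were called on both sides, where 1.21% of all tested genes were called on the soft side and 0.240% on the stiff side. All 9 tested WNT ligands (19 listed, 10 below the minimum) lay above 0, with a median of 1.13, and 2 of them were called on the soft side in the authors' deposited table. WNT8A, a streak ligand of the canonical branch, stood at 26.1 FPKM against 9.10 (change 1.42, SE 0.55), and WNT5A, the main ligand of the non-canonical branch, at 24.8 against 8.03 (change 1.51, SE 0.79). WNT5B stood at 22.7 against 5.37 FPKM, and its q in the authors' deposited table was 0.0637. The receptors were mixed: of 19 tested, FZD5 (18.3 and 76.9 FPKM, change -2.01, SE 1.03) and FZD7 (17.2 and 37.9, change -1.10, SE 0.45) were called on the stiff side and none on the soft side, while 9 lay above 0 and 10 below, with a median of -0.02. Of 12 secreted modulators, 3 inhibitors that bind WNT proteins outside the cell were called, all on the stiff side; 5 of the 12 lay above 0 and 7 below, with a median of -0.08. FRZB stood at 1.84 FPKM against 9.71 (change -1.92, SE 0.67), SFRP1 at 15.4 against 52.5 (change -1.70, SE 0.53) and SFRP2 at 11.7 against 30.5 (change -1.31, SE 0.49). DKK1, an inhibitor that acts on the LRP coreceptors and is itself a WNT target, lay the other way at 21.6 against 12.3 FPKM, and so did RSPO2, a secreted enhancer of WNT signals, at 11.3 against 0.546, both uncalled in the authors' deposited table. Inside the cell, CTNNB1 (beta-catenin) stood at 228 and 207 FPKM. LEF1, the nuclear partner of beta-catenin, stood at 33.0 against 7.45 (change 2.01, SE 0.77), and besides BAMBI it was the only call among 23 tested nuclear factors and targets, whose median was 0.14.

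Some ligands and receptors of other growth factor families were higher on the soft gel, where 1.21% of all tested genes were called. Of 34 tested genes of the HGF, PDGF, VEGF and chemokine axes 6 were called in the authors' deposited table, all on that side, with a list median of 0.43. HGF, a ligand made by mesenchyme, stood at 29.6 FPKM against 1.79 (chr7:81328322-81399754, hg19; change 3.45, SE 1.05), whereas its receptor MET, chosen after its values were seen, stood at 4.92 and 4.91. The chemokine CXCL12 stood at 31.7 against 9.75 FPKM (change 1.60, SE 0.60), and its scavenging receptor ACKR3 at 16.5 against 1.98 (change 2.56, SE 0.83). PGF, a ligand of the VEGF receptor FLT1, stood at 13.7 against 3.72 (change 1.64, SE 0.67). FLT1 itself changed by 1.40 with an SE of 0.53, and at day 0 had stood at 31.2 and 33.2 FPKM. The coreceptor NRP1 stood at 9.42 against 1.51. KDR changed by 0.61 with an SE of 0.46 and had no call in the authors' deposited table. FGF19, an FGF that acts at a distance, was the 1 call among 13 FGF ligands and receptors, at 10.9 against 1.48 FPKM, while FGFR1 stood at 117 and 204. The ERK feedback genes had no call of 17, with DUSP6, a phosphatase that switches ERK off, at 59.8 and 19.01 FPKM and a q of 0.0521 by the authors' deposited table. The Nodal and Activin list had 2 calls of 19, both on the soft side, among them TGFBI, a secreted adhesion protein induced by TGF-beta, at 158 against 27.4 FPKM (change 2.48, SE 0.59). In the Notch list HEY1 was called on the soft side and DLK1 on the stiff side among 18 tested.

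Guidance cues were called on both sides, beside 1.21% of all tested genes on the soft side and 0.240% on the stiff side. Among 37 semaphorins, plexins, netrins and slits, UNC5C, a netrin receptor (7.22 and 1.23 FPKM), SEMA3C (10.5 and 2.63) and SEMA3D (33.0 and 10.9) were called on the soft side in the authors' deposited table. SEMA5B, a transmembrane semaphorin, was called on the stiff side at 2.64 FPKM against 54.98 (chr3:122627930-122747452, hg19; change -3.94, SE 0.69). The list as a whole leaned slightly to the stiff gel, with 22 members below 0 and a median of -0.22. EFNA1, an ephrin ligand, stood at 51.6 against 12.9 FPKM (change 1.92, SE 0.58), the 1 call among 15 ephrins and Eph receptors; EPHA4 stood at 34.3 and 97.6 uncalled in the authors' deposited table.

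Matrix genes formed the next group on the soft side, where 1.21% of all tested genes were called. Of 30 tested collagen chains 6 were called in the authors' deposited table, all higher there, and the median of the list was 0.15. The 3 chains of collagen VI, a microfibrillar collagen of connective tissue, all passed: COL6A3 stood at 16.2 FPKM against 1.08 (change 3.04, SE 1.12), COL6A2 at 57.3 against 20.7 (1.43, SE 0.80) and COL6A1 at 33.8 against 13.2 (1.29, SE 0.49). COL2A1, the collagen of cartilage and notochord, stood at 41.5 against 9.18 (change 2.06, SE 0.77), and COL3A1, a fibrillar chain of loose mesenchyme, at 17.7 against 0.388 (change 3.75, SE 1.93). COL3A1 holds a small RNA gene. COL5A1 was called as well, at 12.9 against 4.42 FPKM (change 1.36, SE 0.73). The basement membrane chains COL4A5 (79.0 and 81.3 FPKM) and COL4A6 (27.0 and 31.2) had no call and changes of -0.04 and -0.20, and none of the 10 laminins was called. Of 43 proteoglycans and glycoproteins 4 were called, again on the soft side. LUM (lumican), a small proteoglycan that organises collagen fibrils, had a change exceeded among list members by RGS4 alone, at 136 FPKM against 4.69 (chr12:91496406-91505608, hg19; change 4.59, SE 0.81). Its neighbour DCN (decorin) stood at 38.7 against 3.79 (change 3.05, SE 1.38), and the syndecan SDC4 at 44.4 against 18.6. At day 0, LUM had stood under 0.1 FPKM on both gels. SPARC, a matrix glycoprotein and the most abundant of the list, stood at 2639 against 868 FPKM, but with an SE of 2.28 and no call in the authors' deposited table. The proteases ADAMTS9 (20.8 and 5.07 FPKM) and ADAMTS18 (9.03 and 1.45) were called on the soft side among 28 proteases and inhibitors.

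Genes of the machinery by which cells read stiffness are given beside the 1.21% of all tested genes that were called on the soft side. Of 29 focal adhesion adaptors, NEDD9, a docking protein of the FAK pathway (26.8 and 6.53 FPKM), and TES (32.6 and 12.9) were called on the soft side in the authors' deposited table. PTK2, the focal adhesion kinase itself, stood at 146 and 138 FPKM, and FERMT2 (kindlin-2) at 103 and 232 without a call. Of 15 integrins only ITGB6, at 4.01 against 0.716 FPKM (SE 1.46), was called, while ITGB1, the common beta chain, stood at 128 and 97.1. Among 34 YAP and TAZ regulators and targets the 1 call was AMOT, a protein that tethers YAP in the cytoplasm. It stood at 24.98 against 5.79 FPKM with an SE of 1.11, and its interval includes 0. The AMOT gene holds a small RNA gene. YAP1 stood at 33.2 and 23.1 FPKM, and the much used YAP targets CTGF (1.83 and 3.58) and CYR61 (2.02 and 3.71) were low on both gels, with changes of -0.69 and -0.64 and no call in the authors' deposited table. Of 32 actomyosin and GTPase genes RHOB, an early-response GTPase, stood at 44.3 against 11.2 FPKM (change 1.89, SE 0.50) and ARHGAP29 at 12.3 against 4.71, both called on the soft side. ACTB stood at 740 and 884 FPKM with a change of -0.26.

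Thin-filament, filament and membrane-binding genes gave some of the most abundant calls on the soft side, where 1.21% of all tested genes were called. TPM1, a tropomyosin, stood at 780.4 FPKM on soft against 243 on stiff gel (change 1.68, SE 0.56), and ACTC1, the cardiac alpha-actin, at 88.3 against 8.60 (change 3.22, SE 0.93). They were the 2 calls among 17 muscle actin and thin-filament genes in the authors' deposited table, and TPM4 lay at 333 and 283. VIM, the filament protein of mesenchyme, stood at 552 against 187 FPKM (change 1.55, SE 0.42). At day 0 its order had been the reverse, with 139 FPKM on soft and 270.2 on stiff gel. Of 23 caveolar, annexin and S100 genes 6 were called, all on the soft side. Of the annexins, which bind membranes in a calcium-dependent way, ANXA3 stood at 82.2 against 16.6 (change 2.24, SE 0.60), ANXA1 at 46.8 against 10.6 and ANXA2 at 341 against 119. The ANXA2 partner S100A10 stood at 77.3 against 21.7, and S100A11 at 296 against 96.7. ANXA5 (169 and 145 FPKM) and ANXA6 (117 and 61.8) had no call in the authors' deposited table. ANXA2P2, a processed copy of ANXA2, was called as well (212 and 72.4 FPKM), and reads of near-identical copies may be split between them, so both values are uncertain. The same holds for KRT8, at 619 and 225 FPKM (q 0.0637 by the authors' deposited table), and its called copies KRT8P45 (59.0 and 20.8) and KRT8P37 (13.4 and 4.18). CDH11, a mesenchymal cadherin, stood at 105.6 against 33.6 FPKM, the 1 call among 38 cadherins and junction genes; the epithelial CDH1 stood at 206 and 167.

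**Figure D4:**
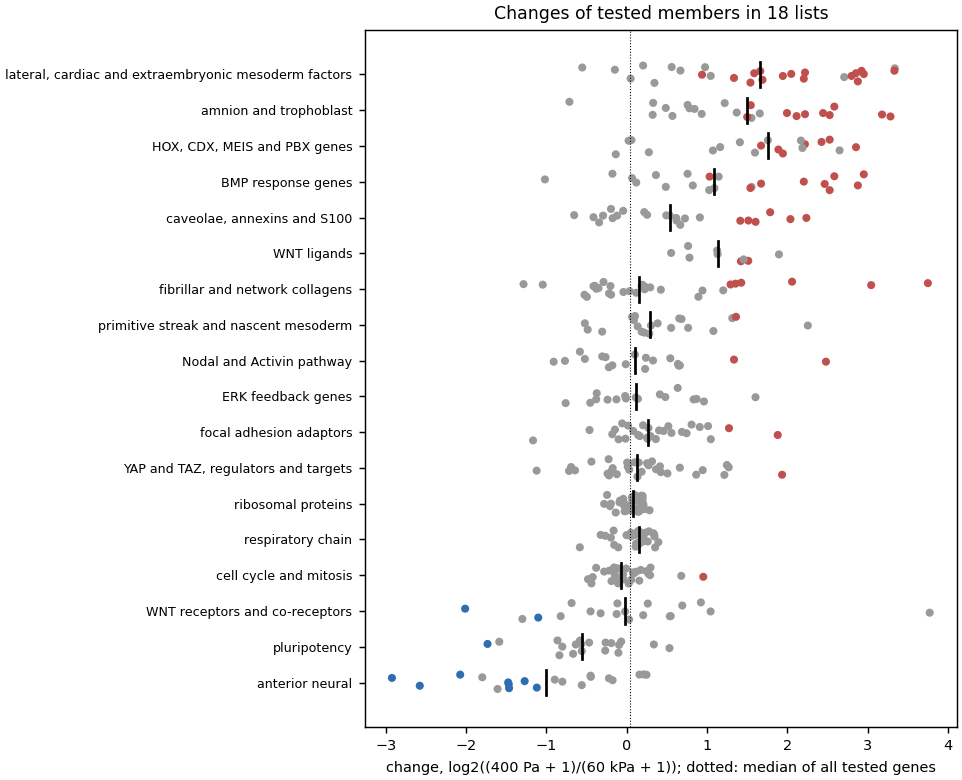
Change of every tested member of 18 lists, each point 1 gene, with red and blue for genes called higher on the soft and on the stiff gel by the authors' deposited table and grey for no call; vertical spread within a list is for legibility. Black bars are list medians and the dotted line is the median of all tested genes, 0.04; ribosomal and respiratory chain genes lie close to it, lateral mesoderm genes to its right and anterior neural genes to its left.

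Anterior neural factors formed the main group on the stiff side. Of 28 listed genes 20 were tested and 7 were below the minimum. By the authors' deposited table, 8 of the 20 were called, all higher on the stiff gel, where 0.240% of all tested genes were called in that direction. The median change was -1.01, and 17 of the 20 lay below 0. HESX1, a repressor of the anterior neural plate and pituitary, stood at 5.11 FPKM on soft against 45.3 on stiff gel (chr3:57231756-57260549, hg19; change -2.92, SE 0.70). FEZF1, a zinc finger repressor of the forebrain, stood at 15.8 against 99.4 (change -2.58, SE 0.87), and LHX5, a LIM homeodomain factor of the forebrain, at 4.12 against 20.6 (change -2.07, SE 0.68). OTX2, needed for forebrain and midbrain and also active in the epiblast, stood at 69.3 against 152 FPKM (change -1.12, SE 0.48). POU3F1, a POU factor of the epiblast and neural progenitors, stood at 0.424 against 2.96, so it was weakly expressed even on the stiff gel. SOX21, a SOX factor of neural progenitors outside that list, stood at 7.35 against 30.1 FPKM (change -1.90, SE 0.85). OTX2 had stood at 136 and 82.2 FPKM at day 0 and FEZF1 at 36.4 and 22.9, so on the soft gel both lay below their day 0 levels and on the stiff gel above them. ZIC2 (11.6 and 37.3 FPKM) and NES (26.8 and 23.8) had no call in the authors' deposited table, and SOX1 and SOX3 were below the minimum.

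Pluripotency genes leaned the same way with 1 call, beside 0.240% of all tested genes called on the stiff side. Of 19 tested members 17 lay below 0, with a median of -0.56, and PRDM14, a regulator of pluripotency and germ cell fate, was called at 4.45 FPKM on soft against 17.1 on stiff gel (change -1.73, SE 0.66). SOX2, shared by pluripotent and neural cells, stood at 54.0 against 164 FPKM, with an SE of 0.82 and q = 0.519 in the authors' deposited table. LIN28A stood at 131 and 239 FPKM, DNMT3B at 78.3 and 116, POU5F1 at 114 and 122 and NANOG at 2.46 and 3.16, all uncalled in the authors' deposited table. In the day 0 table POU5F1 had stood at 339.8 and 409 FPKM and NANOG at 16.7 and 24.9, so both were lower after induction on either gel.

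Imprinted genes, which are expressed from a single parental copy, were called on both sides. The share over all tested genes was 1.21% on the soft side and 0.240% on the stiff side. Of 17 tested, H19, a noncoding RNA of the maternal copy, stood at 58.0 FPKM on soft against 6.47 on stiff gel (change 2.98, SE 0.84; it holds a small RNA gene). The row that merges IGF2, the partner of H19 in its cluster, with INS and INS-IGF2 lies outside the genes counted here and is given in the closing section. The cluster from DLK1 to DIO3 on chromosome 14 was split: DLK1, a Notch-like ligand of the paternal copy, stood at 37.6 against 105.9 FPKM (chr14:101192042-101201632, hg19; change -1.47, SE 0.48), and the maternal noncoding RNA MEG3 at 0.555 against 4.03. DIO3, the enzyme that inactivates thyroid hormone, lay the other way at 11.2 against 1.40 (chr14:102027688-102029789, hg19; change 2.35, SE 0.76). MEG3 holds small RNA genes and its SE was 3.17. MEST (309 and 340 FPKM), GNAS (225 and 236) and PEG10 (68.7 and 67.1) had no call in the authors' deposited table.

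In all, 8 pairs of called genes lay within 100 kb of each other in the deposited coordinates, and the genes of each pair had the same direction. With 181 of the 217 calls on the soft side, many pairs would share a direction wherever they lie. Agreement of neighbours beyond that was not tested. On the soft side the pairs were LUM with DCN, COL6A1 with COL6A2, S100A10 with S100A11, FOXF1 with FENDRR, CREG1 with RCSD1, and FBXL21 with TGFBI. FOXF1, a lateral mesoderm factor, stood at 4.19 against 0.605 FPKM, and FENDRR, a noncoding RNA that lies 1.43 kb from it, at 2.71 against 0.0923. On the stiff side the pairs were DLK1 with MEG3, and LHX5 with RP11-82C23.2, which share a locus, so that their reads cannot be kept apart. By chromosome the calls ranged from 10 of 311 tested genes on chromosome 13 (3.22%) to 1 of 873 on chromosome 19 (0.115%) and none of 317 on chromosome 22, beside 1.45% over all; these shares are descriptions and were not tested.

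Signalling and early-response genes outside these axes were read beside the same 1.21%. RGS4, a regulator that shuts off G protein signals, had the largest change of any list member, at 77.0 FPKM against 2.12 (change 4.64, SE 1.13), and was the 1 call among 27 tested genes of its list. RGS5, a marker of pericytes, lay the same way at 191 against 27.1 FPKM, uncalled in the authors' deposited table. JUN and FOSL2, subunits of the AP-1 factor, stood at 11.1 against 1.78 and at 12.8 against 1.65 FPKM, the 2 calls among 21 KLF and immediate early factors. KCNMA1, a potassium channel gated by calcium and voltage, was the 1 call among 19 channels, at 3.79 against 0.728 FPKM (SE 1.53). The stretch-gated channels PIEZO1 (8.04 and 7.52 FPKM) and PIEZO2 (8.83 and 4.72) were uncalled in the authors' deposited table.

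Genes that every cell uses were read for comparison, beside the 1.45% of all tested genes that were called in either direction. None of 42 ribosomal protein genes was called in the authors' deposited table, and their changes ran from -0.28 to 0.29. The same held for 32 respiratory chain genes, between -0.58 and 0.40, and for 19 histone genes, with a median of 0.22. Among 34 cell cycle genes the 1 call was CDK6, a G1 kinase, at 10.5 against 4.93 FPKM (SE 0.74), and the list median was -0.07. GAPDH stood at 1559 and 1421 FPKM. The glycolysis, cholesterol, p53, stress, interferon, retinoic acid, Hedgehog and chromatin lists had no call, with medians between -0.10 and 0.30. In the retinoic acid list CRABP1, a retinoid carrier, stood at 93.7 and 226 FPKM and CYP26A1, which degrades retinoic acid, at 34.5 and 66.2, both uncalled in the authors' deposited table.

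Of the called genes, 96 on the soft side and 17 on the stiff side were on none of the lists. The largest change of all belonged to ZNF275, a zinc finger gene on chromosome X, at 295 FPKM on soft against 1.46 on stiff gel (chrX:152599613-152625568, hg19; change 6.91, SE 0.80). At day 0 it had stood at 1.78 and 2.10, so the soft gel at day 3.5 is the single group in which it was high. SLC39A2, a zinc transporter, stood at 28.4 against 0.926 FPKM (change 3.93, SE 1.02). PMP22, a myelin and epithelial membrane protein, stood at 31.1 against 2.64, and TPR, a nuclear pore protein, at 492 against 56.0; both genes hold a small RNA gene. On the stiff side RP1-34H18.1, a noncoding locus, had the largest change, at 0.403 FPKM against 83.5 (change -5.91, SE 2.20). NRF1, a factor that controls nuclear genes of mitochondria, followed SEMA5B with 9.69 against 139.9 FPKM (chr7:129251555-129396922, hg19; change -3.72, SE 0.57), and at day 0 had stood at 9.12 and 56.2. Further genes, chosen after their values were seen, were CTSV, a cathepsin (275 and 69.1 FPKM), DOK4 (123 and 20.2), RHOBTB3 (100.2 and 24.5) and EPAS1, a hypoxia-inducible factor (33.5 and 6.93), on the soft side. SHISA2, an antagonist of WNT and FGF receptors (73.8 and 200.2 FPKM), and USP44, a deubiquitinase of pluripotent cells (17.3 and 41.9), chosen in the same way, were on the stiff side. A small RNA gene lay inside 22 of the 181 genes and 7 of the 36 genes, and inside 14.9% of all tested genes. Besides the genes marked above, these include MEIS2, NRP1, TP63, ARHGAP29 and CDK6 on the soft side. On the stiff side they include SFRP1, VWF and MPLKIP.

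The levels of the called genes were last set beside day 0, without a test, because the tables of the days were made separately. Of the 176 genes of the soft side with a day 0 row, 82 had been under 1 FPKM on both gels. On the soft gel 155 of them stood at least 2-fold above day 0 (with the pseudocount), on the stiff gel 62, and 91 stood that far above day 0 on the soft gel and within 2-fold of it on the stiff gel. Their median levels were 0.965 and 0.981 FPKM at day 0 on soft and stiff gel, and 16.6 and 3.46 at day 3.5. The median gene of this set was thus near 1 FPKM before induction on both gels. The genes of either side were chosen by their order on the gels at day 3.5, so that order is no result. The same counts against day 0 were not made over all tested genes. The 36 genes of the stiff side were more mixed, with 23 at least 2-fold above day 0 on the stiff gel and 16 at least 2-fold below it on the soft gel. Their median levels were 10.2 and 4.25 FPKM at day 0 and 3.38 and 25.3 at day 3.5. By the authors' deposited table for undifferentiated cells, 4 of the called genes had been called before induction, each in the opposite direction. The share of all genes called at day 0 was not computed, so whether 4 is many or few cannot be told. VIM, called on the soft side after induction, had stood at 139 FPKM on soft against 270.2 on stiff gel. The other 3 are on the stiff side after induction: at day 0 MPLKIP had stood at 63.4 against 2.38 FPKM, SEMA5B at 14.9 against 4.06 and GRM7, a glutamate receptor, at 7.28 against 0.377.

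**Figure D5:**
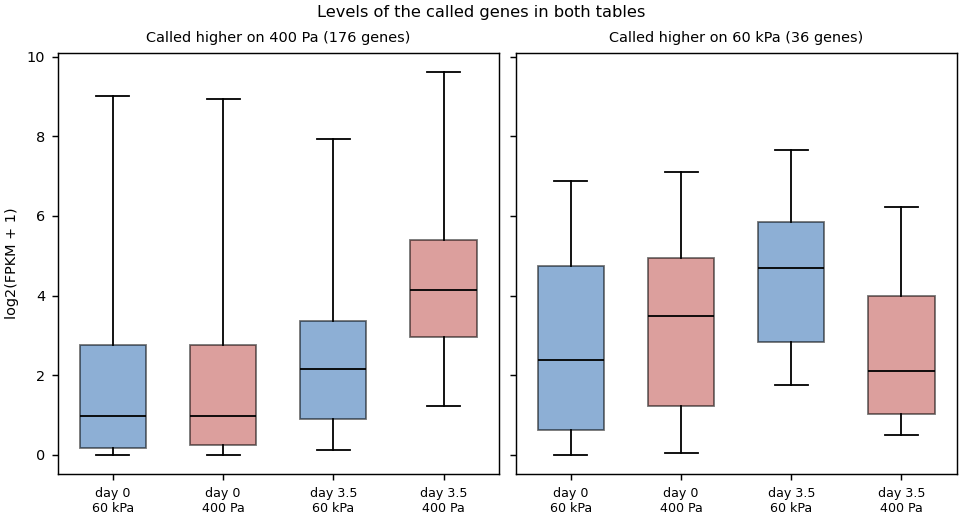
Levels, as log2(FPKM + 1), of the genes called in induced cells by the authors' deposited table, in all 4 groups; boxes span the quartiles, lines in them are medians and whiskers reach the lowest and highest gene. The 176 genes of the soft side (left) have medians of 0.965 and 0.981 FPKM at day 0 and their highest median on the soft gel at day 3.5. The 36 genes of the stiff side (right) have their highest median on the stiff gel at day 3.5. In both panels the order of the gels at day 3.5 follows from how the genes were chosen. Single genes can differ, such as USP44, at 105 and 117 FPKM at day 0 and 41.9 on the stiff gel at day 3.5. The days were quantified separately.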

How the data were processed

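RNA was sequenced by the submitters from 8 libraries in 4 groups of 2, of which the 4 libraries of day 3.5 are described here. Per the submitters' processing notes, the values were made with Cufflinks on build hg19; neither their versions nor the aligner, nor an annotation, is given in the sources used here. The authors' deposited table of a day holds, per locus, for each gel 1 FPKM, and for the comparison the log2 ratio of stiff over soft, the test statistic as a score, its p-value and the q-value. Replicates are pooled in these values, so read depth is unknown and neither an SD nor a test over libraries could be computed. The design foresaw limma on values per library if such values were given; the authors' comparison was used in its place.

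From these values the change on the log2 scale with a pseudocount of 1 was computed for single-symbol loci with an FPKM of at least 1 on either gel, 1 row per symbol. Dividing the authors' log2 ratio by their statistic gave the implied SE. Genes called are those with a deposited q-value under 0.05. The members and the 62 gene lists (1498 distinct genes) were chosen with earlier results of these data known, so the counts of a list are descriptions. Named genes are, in each direction, the 15 calls of largest change at 5 FPKM or more, up to 5 called and 3 abundant uncalled members of each list, a set named whatever the result, and called neighbours within 100 kb, in all 287. ISL1, TBX4, MSX1, MSX2, ID1, OTX2, PAX3, SOX10, PIEZO1, PIEZO2, RSPO2, ANXA2P2, KRT8P37, KRT8P45 and the genes so marked in the text were chosen after their values were seen, as were list members named as below the minimum. A few genes that these rules would name are not reported here.

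Loci that merge several genes (1358) and unnamed loci (3583) stay outside. Coordinates are the deposited ones on hg19, and GENCODE release 29 was matched by symbol only for gene types and for genes that hold a small RNA gene. Whether counting used strand is not stated, and reads of overlapping or antisense genes may be mixed. The Benjamini-Hochberg adjustment, the change, the motif search and the neighbour search were first checked on simulated data. The other steps had no such check. Alternatives were other pseudocounts (0.1 and 0.5), FPKM minimums, q thresholds, a minimum fold, a new Benjamini-Hochberg adjustment, every row counted, rows at 0, low statistics or small RNA holders left out, and 2 rescalings. The software was Python 3.11.15 with matplotlib 3.10.9, scipy 1.17.1, pandas 2.3.3 and numpy 2.4.6.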

Additional observations from a re-analysis of the deposited data

Results flagged for a closer look

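Several called loci of the authors' deposited table lie outside the genes counted above, because their row merges several genes, carries no symbol or repeats a symbol. They are given here as signals in data that the comparison did not use, and which gene of a merged row carries the signal cannot be told. On the soft side, the row of IGF2, INS and INS-IGF2 stood at 57.0 FPKM against 4.47 on the stiff gel (change 3.41), next to H19, which is high on the same gel. The row of HOXB3, HOXB4 and HOXB6 stood at 16.1 against 1.67 FPKM (change 2.68), and the row of the antisense transcripts HOXB-AS1 and HOXB-AS3, which covers the same interval, at 99.5 against 2.88 (change 4.70). The row of JUP, KRT17 and KRT19, a plakoglobin and epithelial keratins, stood at 667 against 185 FPKM (change 1.84). The row of AC026703.1 and NPR3, a natriuretic peptide receptor, changed by 1.28, that of C6orf229 and FAM65B by 2.14, and that of AC068831.10 and AC068831.11 by 6.403. On the stiff side the row of AL132709.5, MEG8 and SNORD113-4 changed by -1.86, in the same cluster and direction as DLK1 and MEG3.

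A further 17 called loci carry no name in the authors' deposited table, 8 higher on the soft and 9 on the stiff gel, and 16 of them are listed at 0 on a gel. Called rows of a symbol beside its most abundant row were those of snoU13 (change 7.54), AC105227.1 (2.74), MYL4, an atrial and embryonic myosin light chain (2.33), and FAM89A (1.94), all higher on the soft gel.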

How the results depend on the processing

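Another pseudocount cannot turn a direction, and centring or scaling shifted every change by less than the smallest called one, so those settings do not test the directions. Only a q threshold of 0.01 moved the counts by over 1.5 times, to 101 genes on the soft side and 17 on the stiff side, which are the genes at the smallest q of the authors' deposited table (0.00783). The other 9 alternatives gave 144 to 221 and 29 to 45 genes. Scaling to the upper quartile, which lowers every change by 0.07, took the share of tested genes above 0 from 54.4% to 47.4%. The same scaling moved the median change of definitive endoderm genes from 0.05 to -0.005784. With an FPKM minimum of 5 the median change of BMP ligands went from -0.03 to 0.31, since fewer ligands were left. That minimum moved the medians of another 21 of 61 lists by at least 0.1, and pseudocounts of 0.1 and 0.5 moved those of 11 and 6 of 62. At an unadjusted p under 0.05, 918 genes (6.12%) passed in the authors' deposited table, 623 on the soft and 295 on the stiff side. No paired analysis was possible because each gel has 1 pooled value, and leaving out each replicate was not run for the same reason. With 2 libraries a gel and a median SE of 0.80 and 0.74 among the called genes, smaller differences could pass without a call, and depth as a limit was not tested.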
